A study of Caenorhabditis elegans with 2 samples.

Results

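Of 1254 autosomal peaks kept from the series, 179 had their summit in the promoter windows of protein-coding genes on both strands, 14.3% (exact Clopper-Pearson 95% interval 12.4 to 16.3). These peaks at divergent promoters were chosen by position alone. A peak qualified when its summit lay between 1000 bp upstream and 200 bp downstream of an annotated 5′ end on the plus strand and, at once, of one on the minus strand. The starting set of 2058 peaks held the 1627 of the conservative series list and 431 of the other series list that overlapped none of these. Peaks on chromosome X (404), peaks at the right end of chromosome II from 13400000 onwards (277) and summits within 200 bp of a tRNA gene were left out. The conservative list supplied 156 of the 179 and the other list 23.

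The peaks came from chromatin immunoprecipitation followed by sequencing (ChIP-seq) of whole Caenorhabditis elegans larvae at the L4 stage, 50 hours old, in 2 biological replicates. Both replicates were of strain OP351, which carries the transgene wgIs351, nhr-42 fused to TY1, EGFP and 3xFLAG, with unc-119(+) as the rescuing marker in the unc-119(tm4063) mutant background. The animals had been synchronised by starvation of L1 larvae obtained by bleaching, their chromatin was sonicated to 200 to 800 bp, and an antibody against GFP was used for the precipitation. There was 1 group and therefore no comparison between conditions. The protein profiled was the product of a transgene, the sex of the animals was not given, and signal from all tissues was mixed. The labels name a possible control experiment, which is not analysed here, so no value could be set against an untagged background, and what share of the peaks depended on the tagged receptor was not tested.

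A divergent promoter is the stretch between 2 neighbouring genes that are transcribed away from each other, so a protein bound there is close to the start of both. Nuclear hormone receptors are transcription factors with a zinc finger DNA-binding domain, often regulated by a lipophilic ligand, and C. elegans has an unusually large family of them, to which nhr-42 belongs. Many C. elegans transcripts are trans-spliced to a leader, which removes the start of the primary transcript. An annotated 5′ end can therefore lie downstream of the site of initiation.

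Sequences around the summits of 8 of the strongest such peaks called in both replicates are shown. Most of them carry short stretches that recurred among the peaks. All 8 are plus-strand sequences of build WBcel235, which is ce11, taken from the RefSeq genome within 75 bp of the summit and cut at the first annotated exon. Capitals mark 12 runs of 8 letters (8-mers) described further on, and in F44E5.4/F44E5.5 the matches to the heat shock element, in which TTC, GAA and TTC follow each other with 2 free letters between. Each peak is named by the nearest gene on the minus strand and the nearest on the plus strand.
K01G5.10/tasp-1 (chrIII:10759175-10759306): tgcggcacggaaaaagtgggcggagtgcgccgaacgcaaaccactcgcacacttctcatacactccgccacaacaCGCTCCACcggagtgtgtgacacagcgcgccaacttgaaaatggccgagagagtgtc
rpl-20/Y17G9B.5 (chrIV:4749991-4750141): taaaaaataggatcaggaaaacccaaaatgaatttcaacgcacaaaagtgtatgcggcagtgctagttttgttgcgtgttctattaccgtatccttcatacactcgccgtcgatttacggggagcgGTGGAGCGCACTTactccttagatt
rpl-15/K11H12.8 (chrIV:654854-655004): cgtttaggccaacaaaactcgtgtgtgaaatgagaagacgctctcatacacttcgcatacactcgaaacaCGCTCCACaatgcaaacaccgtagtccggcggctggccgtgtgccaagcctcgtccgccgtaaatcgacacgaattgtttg
drr-2/set-16 (chrIII:13643659-13643809): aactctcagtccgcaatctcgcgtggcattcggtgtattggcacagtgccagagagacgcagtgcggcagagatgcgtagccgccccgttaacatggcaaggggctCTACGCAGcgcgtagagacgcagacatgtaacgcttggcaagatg
rpl-12/lin-54 (chrIV:13240652-13240751): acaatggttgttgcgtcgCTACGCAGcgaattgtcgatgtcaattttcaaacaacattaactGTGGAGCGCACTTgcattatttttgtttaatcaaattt
iff-2/F54C9.14 (chrII:8561368-8561505): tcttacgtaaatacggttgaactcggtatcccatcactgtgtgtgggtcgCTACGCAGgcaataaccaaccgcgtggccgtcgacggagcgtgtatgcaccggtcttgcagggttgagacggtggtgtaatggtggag
F44E5.4/F44E5.5 (chrII:11759399-11759549): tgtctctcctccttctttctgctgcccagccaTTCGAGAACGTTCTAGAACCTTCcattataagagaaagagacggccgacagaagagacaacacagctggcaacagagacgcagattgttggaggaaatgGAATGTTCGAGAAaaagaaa
rpl-7A/set-21 (chrIV:4390591-4390727): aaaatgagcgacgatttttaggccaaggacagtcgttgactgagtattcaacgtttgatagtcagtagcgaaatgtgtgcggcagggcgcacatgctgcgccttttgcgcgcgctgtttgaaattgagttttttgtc

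CGCTCCAC, on either strand, was in 4 of these 8 windows and CTACGCAG in 3, and rpl-12/lin-54 held both. The F44E5.4/F44E5.5 and rpl-7A/set-21 windows held none of the 12.

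A second set is shown because both genes of the pair belonged to 1 gene list. The genes rsp-2 and rsp-1 encode SR splicing factors, and the remaining pairs are histone genes, which in C. elegans are often arranged head to head. Capitals mark the same 8-mers in rsp-2/rsp-1 and, in the histone pairs, CTGCGGGGACAC, the longest run shared by 5 of the 6 histone pairs.
rsp-2/rsp-1 (chrII:11453130-11453280): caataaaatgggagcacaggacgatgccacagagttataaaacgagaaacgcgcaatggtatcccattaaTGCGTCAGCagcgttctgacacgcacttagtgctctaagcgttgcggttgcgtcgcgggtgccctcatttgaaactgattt
his-6/his-5 (chrV:8535007-8535157): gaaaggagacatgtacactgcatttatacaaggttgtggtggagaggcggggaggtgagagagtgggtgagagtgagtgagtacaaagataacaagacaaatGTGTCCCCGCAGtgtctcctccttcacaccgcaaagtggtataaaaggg
his-61/his-62 (chrIV:7486266-7486416): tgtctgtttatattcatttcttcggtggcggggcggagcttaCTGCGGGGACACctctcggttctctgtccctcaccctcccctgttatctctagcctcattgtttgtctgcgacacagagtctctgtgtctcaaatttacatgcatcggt
his-4/his-3 (chrV:16040608-16040707): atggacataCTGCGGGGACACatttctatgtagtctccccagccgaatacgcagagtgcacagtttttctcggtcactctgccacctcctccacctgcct
his-60/his-59 (chrIV:7488043-7488193): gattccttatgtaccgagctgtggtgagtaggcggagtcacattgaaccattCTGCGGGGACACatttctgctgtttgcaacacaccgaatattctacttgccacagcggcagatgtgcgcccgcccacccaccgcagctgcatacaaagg

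The run was also in the window of his-67/his-68, which is not shown. It was not in that of his-35/his-41 within 75 bp of the summit. Among all 179 windows of this width the run was in these 5 alone, 2.79%, against 2 of 463 windows (0.432%) at one-sided promoters and 0 of 2187 at ranked peaks below the threshold in divergent windows. It lay within 75 bp of the midpoint of 8 of 2287 head-to-head gene pairs. This run was picked from these histone windows, so the counts are a description.

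The deposited signal value of a peak, which has no stated unit, ran from 3.84 to 685 over the 179 peaks, with a median of 118 and quartiles of 87.0 and 171. The strongest was K01G5.10/tasp-1, with a signal of 685 in the series list, 416 in replicate 1 and 258 in replicate 2. Its summit was 57 bp upstream of tasp-1, which encodes a threonine aspartase, and 728 bp upstream of K01G5.10. Second was rpl-20/Y17G9B.5, with a signal of 642, and 368 and 272 in the replicates. Next came rpl-15/K11H12.8 with 546, and 333 and 211. Both rpl genes encode proteins of the large ribosomal subunit. All 3 had higher values in replicate 1.

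The 20 strongest peaks called in both replicates had signals from 250 to 685, from 143 to 416 in replicate 1 and from 93.4 to 272 in replicate 2. Replicate 1 was the higher in 18 of the 20. A gene from 1 of the 12 lists of core cell functions was nearest on one strand or the other in 12 of them, F44E5.4/F44E5.5 not counted, and a gene for a cytosolic ribosomal protein in 7. Over all 179 peaks these counts were 58 and 19. After the first 3 came drr-2/set-16 (464), between a gene for a translation initiation factor related to eIF4H and a gene for a histone methyltransferase of the MLL type. Then came rpl-12/lin-54 (429), where the summit was 25 bp upstream of rpl-12 and 368 bp upstream of lin-54, the gene for a DNA-binding subunit of the DRM complex. The peak iff-2/F54C9.14 (393) was 63 bp upstream of iff-2, which encodes initiation factor eIF5A.

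F44E5.4 and F44E5.5 (391) are a divergent pair of genes of the HSP70 family and are near-identical copies, so reads within the genes cannot be assigned to one of them with certainty. Their summit window was single-copy. Ribosomal protein genes followed in rpl-7A/set-21 (373), ifet-1/rps-1 (370), ska-3/rps-12 (343) and rps-19/hsr-9 (312), and ifet-1 itself encodes a partner of eIF4E. Between them ranked nhl-2/tag-340 (345), at a gene for a TRIM-NHL protein that acts with microRNAs. Chaperone genes stood at cct-8/Y55F3AR.2 (304), Y22D7AL.10/hsp-60 (292) and F54D5.9/dnj-13 (285). These encode a subunit of the cytosolic chaperonin, the mitochondrial chaperonin and a DnaJ cochaperone.

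The last 5 of the 20 were mcrs-1/atp-1 (279), nrde-2/atad-3 (268), lin-53/nra-2 (257), gpap-1/scpr-1 (255) and larp-1/wip-1 (250). Of these genes, atp-1 encodes a subunit of the mitochondrial ATP synthase and its 5′ end was 5 bp from the summit. The gene nrde-2 acts in nuclear RNA interference, atad-3 encodes a mitochondrial ATPase, lin-53 a histone-binding protein of the RbAp46/48 type, and larp-1 a La-related RNA-binding protein. None of the 20 summits lay in repeated sequence.

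The 5 weakest of the 179, with signals of 3.84 to 17.9, were each the second peak at a pair that also had a stronger one. They lay 199 to 207 bp from that stronger summit and shared its peak in the replicate lists. The pairs were jmjd-4/mev-1, nhr-142/F44E7.9, par-5/M117.3, Y54G2A.28/vrp-1 and imp-2/enpl-1. For these 5 the replicate signals are therefore those of the neighbour. All other peaks had signals of 45.9 or more. In all, 9 gene pairs had 2 peaks, so the 179 peaks stood at 170 distinct pairs.

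Calls in the replicates' own thresholded lists did not enter the choice of the peaks. Replicate 1 called 120 of the 179 (67.0%), where it called 41.6% of all 1254 kept autosomal peaks. Replicate 2 called 77 (43.0%), where it called 31.7% of the 1254. Both replicates called 69 (38.5%), beside 22.8% of the 1254, whereas 51 were called in replicate 1 alone, 8 in replicate 2 alone and 51 in neither. A peak of the series lists rests on reads of both replicates, so a peak absent from a replicate list was not called at that depth and is not shown to be absent.

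Peaks at one-sided promoters, with 463 summits in windows of 1 strand only, were the comparison. They were called in both replicates less often, 113 of 463 (24.4%). The odds ratio was 1.94 (95% interval 1.32 to 2.85), with an adjusted p = 0.000797 in a two-sided Fisher's exact test, adjusted over 4 tests by the Benjamini-Hochberg method. With narrower windows of 500 bp upstream to 100 bp downstream the shares were 37.8% and 29.3% and the difference no longer passed (Fisher's exact test, adjusted p = 0.119). Among the stronger 50% of the kept peaks they were 53.9% and 45.3% (Fisher's exact test, adjusted p = 0.170). These tests compare peaks of the same libraries and say nothing about conditions, and intervals cover counting error only.

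Signal was also higher. Of the 179, 86 (48.0%) were in the top 25% of kept autosomal peaks by signal, against 126 of 463 (27.2%) at one-sided promoters. The odds ratio was 2.47 (1.70 to 3.59; Fisher's exact test, adjusted p = 3.78e-06). In the replicates' own lists the corresponding shares were 38.0% and 24.4% in replicate 1 (adjusted p = 0.0236) and 34.2% and 22.4% in replicate 2, where Fisher's exact test did not pass (adjusted p = 0.0917). Within the stronger 50% of the peaks the shares were 35.9% and 24.7% (Fisher's exact test, adjusted p = 0.0766). Median signal was 118 against 92.8, a ratio of 1.28. The one-sided set nevertheless held the stronger single peak, with 937 against 685.

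The 2 replicates gave unequal values at divergent promoters. Of the 175 peaks with a value in each replicate, 128 (73.1%) had the higher signal in replicate 1, with a median ratio of replicate 1 to replicate 2 of 1.29. At one-sided promoters replicate 1 was higher in 252 of 451 (55.9%), with a median ratio of 1.04. This difference was noticed in these values and sets 1 library against 1 library, so it is a description. Of the 175 peaks, 5 repeat the replicate values of a stronger neighbour. Median signal in replicate 1 was 68.2 at divergent and 49.5 at one-sided promoters, a ratio of 1.38, and in replicate 2 it was 51.5 and 48.0, a ratio of 1.07. Across the 175 peaks the log2 signals of the replicates had a Pearson correlation of 0.715 and a Spearman correlation of 0.649, as a description of peaks that share both libraries.

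**Figure D1:**
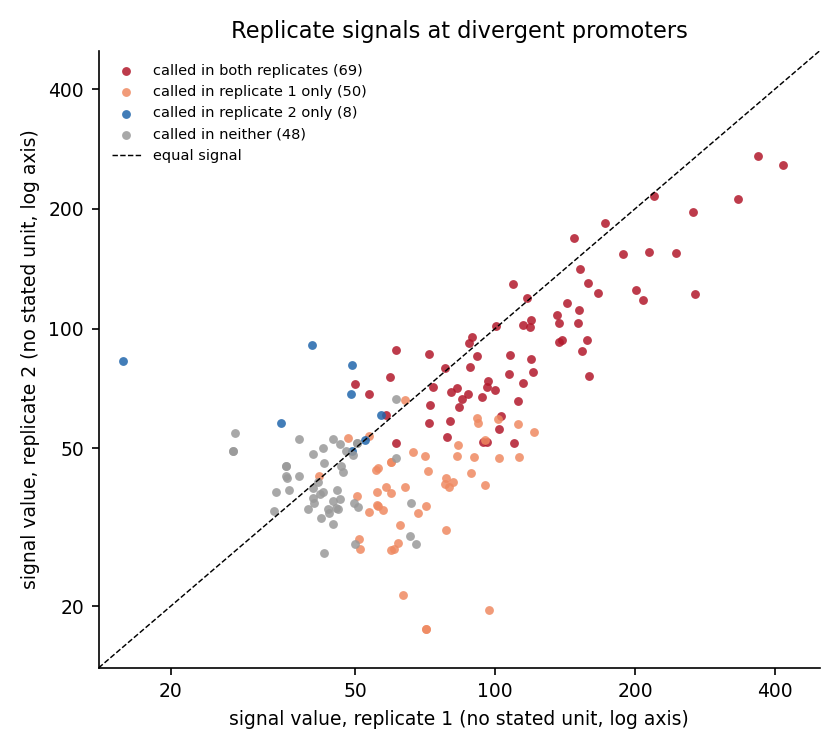
Signal of each peak at a divergent promoter in replicate 1 (x axis) and replicate 2 (y axis), both on log axes without a stated unit, coloured by the replicate lists that called it. Of the 175 points, 128 lie below the dashed line of equal signal, and the 69 peaks called in both replicates fill the upper right.

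Summits were denser where windows of both strands overlapped than where a window of 1 strand stood alone. The overlapping windows covered 2.18 Mb and held 82.3 summits per Mb (exact Poisson 95% interval 70.7 to 95.3). Windows of 1 strand covered 19.7 Mb and held 23.5 per Mb (21.4 to 25.8), and the remaining sequence 10.4 per Mb. The ratio of the first to the second was 3.50. In the list of replicate 1 it was 5.19 (59.3 and 11.4 per Mb) and in that of replicate 2 it was 4.44 (36.3 and 8.18 per Mb). Ranked peaks below the threshold had no such difference, with 1005 and 1039 per Mb, a ratio of 0.968. Of 2369 ranked peaks in the divergent windows, 182 (7.68%) overlapped a thresholded series peak, against 2.42% in windows of 1 strand and 1.63% of all ranked autosomal peaks.

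Positions in divergent windows are on average nearer to a 5′ end, so densities were also taken at matched distances. Within 100 bp of the nearest 5′ end the densities were 76.9 per Mb in divergent and 29.8 per Mb in one-sided windows. At 101 to 200 bp they were 96.1 and 27.7 per Mb, and at 201 to 300 bp 127 and 35.4 per Mb. Farther out they were 57.3 and 22.9 per Mb up to 500 bp, and 43.3 and 15.1 per Mb beyond. The ratio lay between 2.50 and 3.58 in all 5 ranges of the series lists. In the replicate lists it lay between 1.58, in replicate 2 between 300 and 500 bp, and 7.46, in replicate 2 beyond 500 bp.

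**Figure D2:**
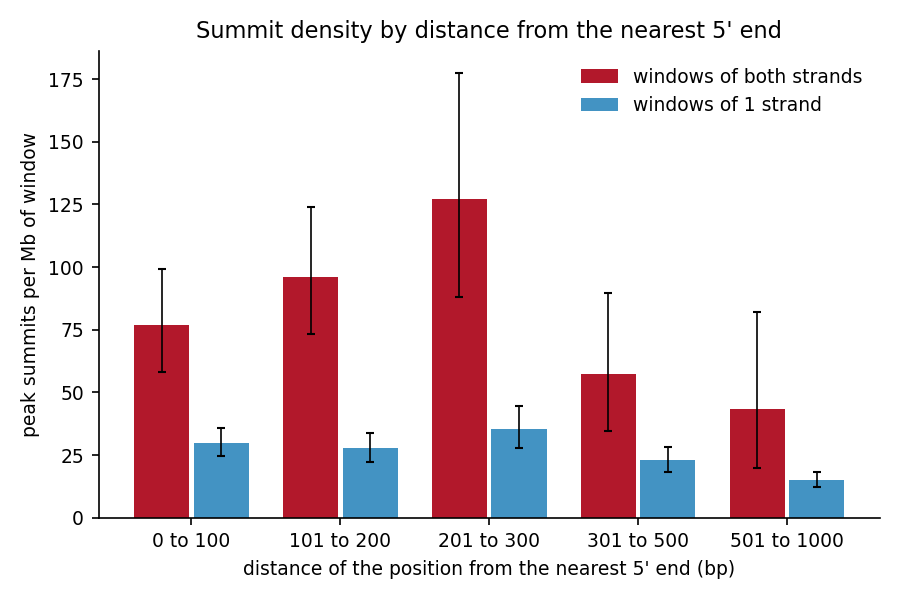
Peak summits per Mb of promoter window (bars, with exact Poisson 95% intervals) by distance of the position from the nearest annotated 5′ end in bp, for windows of both strands and of 1 strand. Bars for both strands are the taller in every range, from 43.3 to 127 per Mb against 15.1 to 35.4 per Mb.

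All 5 autosomes had the higher density in divergent windows. Divergent windows held 88.1 summits per Mb on chromosome I (36 peaks), 72.1 on II (28), 110 on III (40), 90.8 on IV (38) and 62.2 on V (37). The ratio to one-sided windows ran from 2.53 on chromosome I to 4.36 on IV. Both replicates called 19 of 36 peaks on I, 12 of 28 on II, 19 of 40 on III, 13 of 38 on IV and 6 of 37 on V. Over all 1254 kept autosomal peaks they called 22.8%. That share was not taken by chromosome, so the counts are a description. Median signal was highest on chromosome I, at 140, and lowest on V.

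In 160 of the 179 peaks the summit lay upstream of the nearest 5′ end on each strand, between genes that point away from each other, and in the other 19 it was at or just inside one of the genes. The spacing between the 2 nearest 5′ ends had a median of 516 bp, with quartiles of 345.5 and 787.5 bp and a range of 79 to 1831 bp. The nearer 5′ end was a median of 152 bp from the summit and the farther one 368 bp. At one-sided promoters the nearest 5′ end was a median of 243 bp away. Positions in divergent windows are nearer to a 5′ end by the rule itself, so these medians describe the windows as well as the peaks. Of the 160 summits between both genes, 88 (55%) fell in the central 33.3% of the interval and 48 (30%) within 25% of its length from either end. At wide spacings the limit of 1000 bp from each 5′ end leaves only positions near the middle, so these shares are a description. The windows of 165 peaks held 2 genes and those of 14 held 3, which made 354 genes in all.

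**Figure D3:**
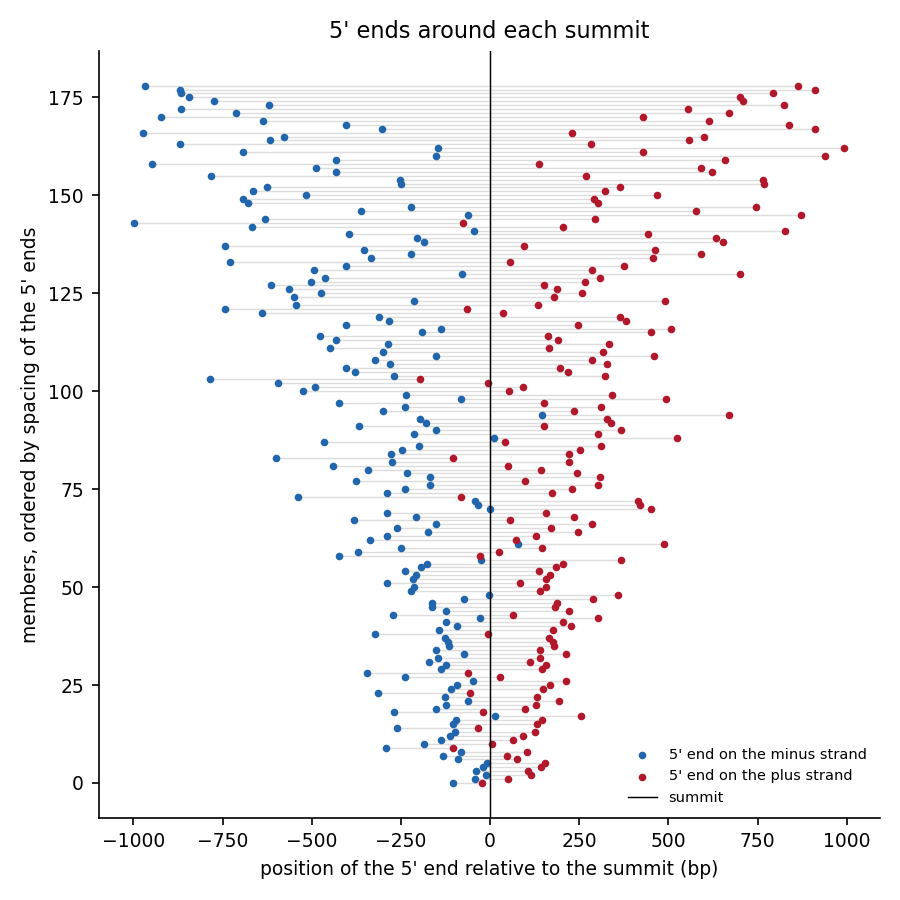
Positions of the nearest minus-strand and plus-strand 5′ ends relative to the summit (x axis, bp) for each of the 179 peaks, ordered from the shortest spacing at the bottom to the longest at the top. Minus-strand ends lie to the left and plus-strand ends to the right of the summit in 160 peaks, and spacing runs from 79 to 1831 bp.

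Read from the side of the genes, 2287 pairs of neighbouring protein-coding genes stood head to head with up to 2000 bp between their outermost 5′ ends, and 146 (6.38%) had such a peak between them. These pairs held 147 of the 179 peaks, and the other 32 lay outside such an interval. The share was 6.33% (30 of 474) at spacings up to 300 bp and 10.2% (58 of 567) above that and up to 600 bp. It was 6.77% (39 of 576) from there to 1000 bp and 2.84% (19 of 670) at the widest spacings, up to 2000 bp. The exact intervals of the highest and the lowest share were 7.86 to 13.0% and 1.72 to 4.39%. Longer spacings partly exceed the windows of the rule, which limits both the share and the density per length there. The widest range can therefore not be set against the others. Per length of sequence between the genes, the series lists had 332, 228 and 89.1 summits per Mb in the first 3 ranges and fewest at the widest spacings. In the list of replicate 1 the first 2 ranges had 177 and 185 per Mb and in that of replicate 2 they had 111 and 106. Ranked peaks below the threshold were also fewest per length at the widest spacings, with 1085, 951, 904 and 348 per Mb. The list of replicate 1 had a summit in 4.90% of the pairs and that of replicate 2 in 2.84%, each with its highest share between 300 and 600 bp.

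**Figure D4:**
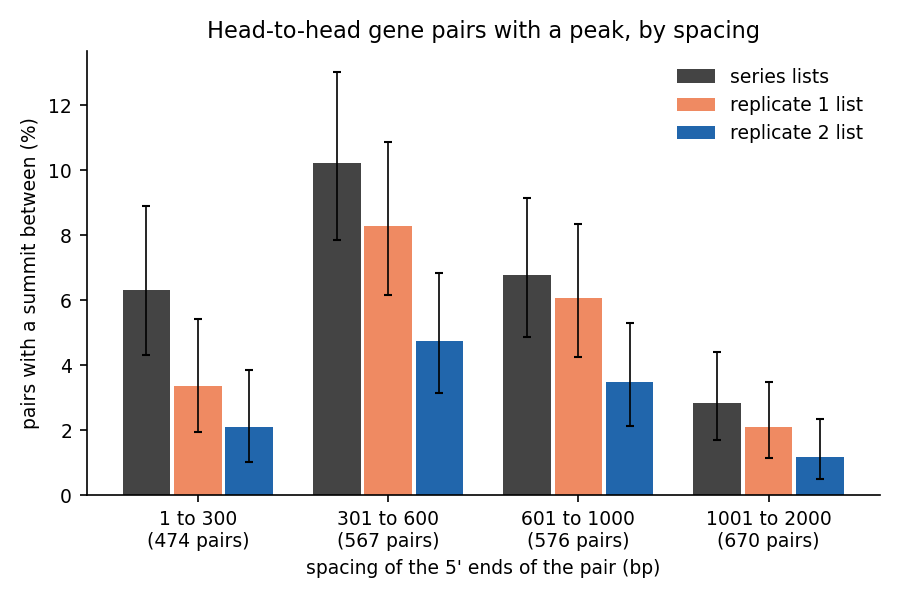
Share of head-to-head gene pairs with a summit between their 5′ ends (bars in percent, with Clopper-Pearson 95% intervals) by spacing in bp, for the series lists and for the list of each replicate. The range between 300 and 600 bp is highest in all 3, at 10.2%, 8.29% and 4.76%.

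By gene list, the shares were highest for ribosomal proteins, chaperones and histones among lists with at least 15 genes that could have such a peak. Of 5407 genes with a window that overlaps one of the other strand, 354 (6.55%) had such a peak. Among genes for cytosolic ribosomal proteins it was 22 of 52 (42.3%, exact interval 28.7 to 56.8), shared by 19 peaks. For the small subunit it was 12 of 21 (57.1%) and for the large subunit 10 of 31 (32.3%). Chaperone genes with an hsp, dnj or cct name, which leaves out F44E5.4 and F44E5.5, followed with 11 of 32 (34.4%), histone genes with 13 of 52 (25%, at 7 peaks) and translation factors and tRNA synthetases with 7 of 37 (18.9%). The lists were chosen with earlier results on these peaks known and no test was made on them. The intervals treat genes as independent, though a peak can count for both genes of a pair. They are likely too narrow where genes share peaks.

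The median signal of the 19 peaks nearest to a ribosomal protein gene was 148, against 117 for the other 160, and the replicates gave 84.7 against 65.6 and 66.4 against 51.3. Both replicates called 12 of the 19 (63.2%) and 57 of the other 160 (35.6%). Beyond those among the 20 strongest came rps-15/F36A2.9 (241), rps-20/ekl-4 (225) and tmem-107/rps-26 (148). At the lower end stood col-38/rpl-5 (77.4), beside a cuticle collagen gene, and rps-13/nfx-1 (73.1). In 3 peaks both genes encoded ribosomal proteins, namely rps-10/rpl-24.1 (130), rpl-39/rps-30 (124) and rps-14/rpl-36 (95.1). Where 1 gene of the pair did, it was the nearer one in 6 of 16 peaks (37.5%, exact interval 15.2 to 64.6). For the 12 core lists together the listed gene was the nearer in 22 of 45 peaks, and 13 more had a listed gene on each strand. A peak counts for both of its genes, and which of them, if either, it bears on was not tested.

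Among chaperones the strongest beyond the first 20 were C47E8.4/hsp-90 (202), at the gene for the cytosolic HSP90, and dnj-19/nhr-47 (199). Among translation factors the strongest after iff-2 and ifet-1 were eef-2 (241), which encodes elongation factor 2 and lay 27 bp from the summit, and eef-1B.1 (183), 29 bp away. The variant histone H2A.Z gene htz-1, paired with wapl-1, had a signal of 177. The 6 histone pairs ranged from 141 at his-67/his-68 to 79.2 at his-35/his-41. Both replicates called 2 of the 6, where they called 38.5% of all 179 peaks. In the histone list the genes have near-identical copies, but all 6 summit windows were single-copy.

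Mitochondrial respiration had 6 of 40 genes (15%) at 5 peaks, led by atp-1 and then by cox-6B and nduc-2, which shared a peak with a signal of 155. The list named RNA polymerase and Mediator had 4 of 21 (19.0%), namely mdt-26, mdt-19, mdt-22 and also taf-4, a gene of neither complex. Splicing factors had 5 of 33 (15.2%), including the pair rsp-2/rsp-1 (180), prp-19 (138) and prp-40 (136). The lower limits of the exact intervals of these 3 lists lay at 5.71, 5.45 and 5.11%, below the background of 6.55%. Germline markers had 2 of 19 genes (mex-1 and syp-4), the proteasome 2 of 24 (rpn-3 and pbs-1) and mitochondrial ribosomal proteins 2 of 29 (mrpl-49 and mrps-7).

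Nuclear hormone receptor genes, the family of the profiled protein, had 3 of 45 (6.67%), near the background. They were nhr-47 (199), nhr-68 (159), which is known to regulate propionate breakdown, and nhr-142 (82.8). The heterochronic gene lin-46 (174) was 1 of 2 such genes. Some large families had low counts, with 4 of 283 chemoreceptor genes (1.41%), 4 of 118 F-box and MATH genes (3.39%) and 2 of 82 C-type lectin genes (2.44%). Of these, the exact interval of the chemoreceptors, 0.386 to 3.58%, lay below the background, whereas those of the F-box and MATH genes (0.931 to 8.45%) and the C-type lectins (0.297 to 8.53%) included it. Cuticle collagens had 1 of 46. No gene was found among 15 of lipid metabolism or 9 of the vacuolar ATPase, for which the exact upper limits were 21.8 and 33.6%. The list of cell division and replication, drawn from a few name prefixes such as mcm and cdk, had 0 of 32 (upper limit 10.9%). Genes of these processes outside the list did have such peaks, for example ctf-4, top-2, knl-3, spd-5 and psf-2, so the count describes the list and not the processes. These 5 were picked after their values were seen. Lists of intestinal, muscle and hypodermal markers had no gene either, but only 6, 1 and 1 of their genes had such a window, and the neuron list had 0.

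**Figure D5:**
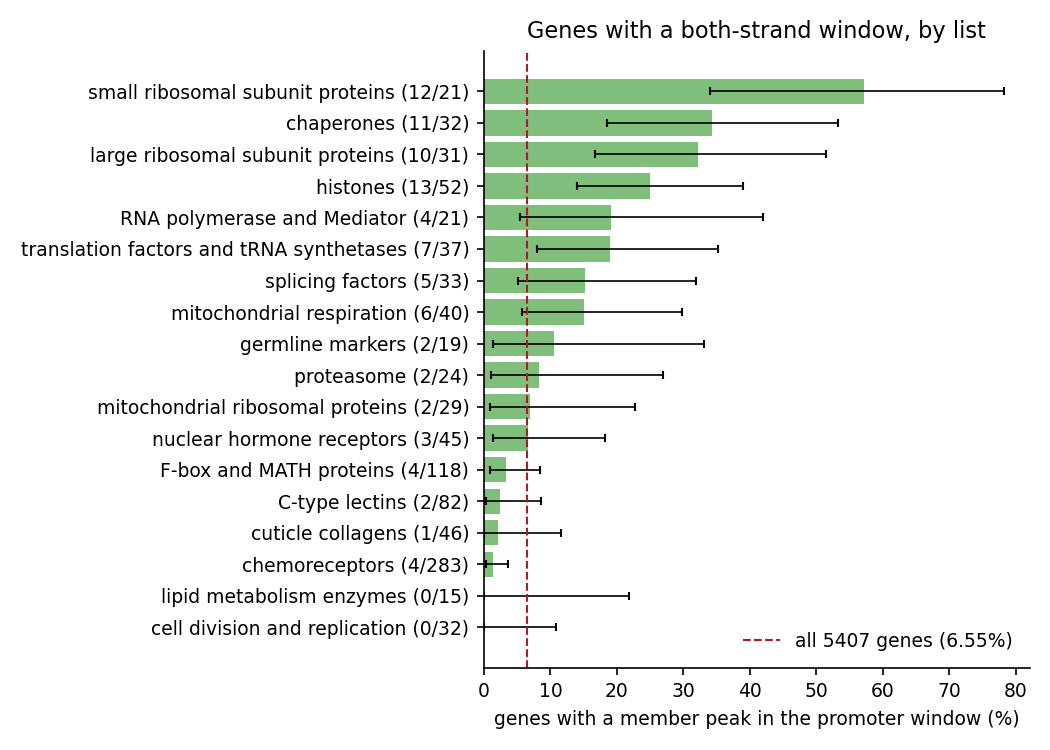
Share of genes with a both-strand window that had a peak in it (bars in percent, with Clopper-Pearson 95% intervals and counts in brackets), for lists with at least 15 such genes. The dashed line is the share of all 5407 genes, 6.55%. The intervals of small and large ribosomal subunit proteins, chaperones, histones, and translation factors lie above it. All intervals treat genes as independent, although genes of a pair can share a peak.

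The summits were richer in G and C than other positions in divergent windows. Within 50 bp of the summit the median GC content was 50.5%, against 47.5% at one-sided promoters and 39.6% at ranked peaks below the threshold in divergent windows. The midpoints of head-to-head pairs had 33.7%, and sequence 500 bp to either side of the 179 summits 38.6 and 39.6%. At one-sided promoters the sequence 500 bp to either side had 35.6 and 36.6%, so median GC content was lower there away from the summits too. GC content was above the median of all kept peaks in 110 of 179 (61.5%) and in 212 of 463 at one-sided promoters (45.8%). The odds ratio was 1.89 (1.31 to 2.73; Fisher's exact test, adjusted p = 0.000797). The difference depended on the width, since within 100 bp of the summit the shares were 43.0% and 44.1% (Fisher's exact test, adjusted p = 0.859). In the list of replicate 1 alone it did not pass either, with 53.5% and 42.7% (Fisher's exact test, adjusted p = 0.0897).

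The half-site AGGTCA, bound by many nuclear receptors, was found within 50 bp of 4 of 179 summits (2.23%), on either strand. This was near its share at one-sided promoters (1.30%), at ranked peaks below the threshold in divergent windows (2.47%) and at pair midpoints (2.45%). The other listed half-site, AGTTCA, was in 7 of the 179 windows (3.91%), against 5.18% at one-sided promoters, 5.90% below the threshold and 7.48% at pair midpoints. The 4 peaks with AGGTCA were H27M09.5/syp-4, hpr-17/F32A11.1, piit-1/sas-5 and F01G4.6/pfd-1, with signals of 71.2 to 98.7. Of the AT-rich sequences, TTTTTT was in 16.8%, 25.1% and 34.4% of the windows of the 179, the one-sided and the below-threshold peaks, and TATAAA in 1.68%, 4.32% and 9.42%. The GC box CCGCCC was in 9.50%, 7.34% and 2.88%. TGCGTCTC, the EOR-1 sequence, was in 6.70%, 5.83% and 1.78%. The GC content of the 3 sets falls in the same order.

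The heat shock element was in 5 of 179 windows (2.79%), against 1.08% at one-sided promoters and 0.503% below the threshold. Of these 5, F44E5.4/F44E5.5, hsp-110/rpn-3, mtx-1/dnj-12 and ahsa-1/C01G10.7 stood at genes for chaperones or cochaperones, and the fifth was atp-5/lmtr-3. Their signals outside the first were 90.6 to 118.

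The 12 8-mers in capitals were those whose share differed most between the 179 windows and the ranked peaks below the threshold in divergent windows. A high share in the 179 windows was part of that choice, so the comparison with one-sided promoters is not independent of it. All shares of these 8-mers are a description with no test. At least 1 of the 12 was in 76 of the 179 windows within 50 bp (42.5%), in 16.8% at one-sided promoters and in 4.71% below the threshold. Joined where they overlap by 6 letters or more, they made 6 groups. The most frequent, with CGGGTCTC, CGAGACCC, GCGAGACC and AGACCCGA, was in 23 windows (12.8%), 3.67% at one-sided promoters. CGCTCCAC with GCGCTCCA was in 21 (11.7%) and 2.81%. AAGTGCGC was in 16 (8.94%) and 4.97%, and CTGACGCA with GCGTCAGC in 15 (8.38%) and 3.89%. CTGGCGCA with GCGCCAGC differed least, in 14 (7.82%) and 6.05%. The 23 peaks of the most frequent group had a median GC content of 55.4%, against 49.5% for the rest of the 179. They included aka-1/ubc-6, czw-1/F20D12.12, C55A6.1/C55A6.10, R11A5.6/pck-2 and tars-1/xpf-1, whose summit sequence was repeated in the genome.

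CTACGCAG, picked in the same way, was in 10 windows (5.59%), against 1 of 463 at one-sided promoters and 1 of 2187 below the threshold. The 10 peaks had a median signal of 239, where the other 169 had 117, and the replicates gave 149 against 65.7 and 88.5 against 51.4. Besides drr-2/set-16, rpl-12/lin-54 and iff-2/F54C9.14 they were nhl-2/tag-340, rps-19/hsr-9, ctf-4/eef-1G, syf-2/K04G7.1, attf-2/F09G2.2, rps-14/rpl-36 and egrh-2/lep-2. The 21 peaks with CGCTCCAC or GCGCTCCA had a median signal of 138, against 118 for the rest. The 2 8-mers went opposite ways, with 209 against 117 for CGCTCCAC and 102 against 120 for GCGCTCCA. For AAGTGCGC the median was 118 with and without.

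Summits within 200 bp of a snoRNA or snRNA gene numbered 7 (3.91%), against 30 of 463 (6.48%) at one-sided promoters. The odds ratio was 0.587 (0.214 to 1.40), and the difference did not pass (Fisher's exact test, adjusted p = 0.259). They included tmem-107/rps-26 beside a snoRNA gene and both peaks of tim-1/Y75B8A.23 beside the spliced leader gene sls-2.8. Genes of the annotation class ncRNA, counted apart from snoRNA, snRNA, piRNA, lincRNA and antisense RNA genes, lay within 200 bp of 36 summits (20.1%). At one-sided promoters it was 55 of 463 (11.9%). This class was picked after the values of several classes were seen, so the counts are a description. The summit sequence was repeated in the genome for 10 of the 179 peaks, of which aka-1/ubc-6 (249), with a median of 22 copies, was the strongest.

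Some values lay close to the limits of the rule. The farthest upstream distance among the 179 was 998 bp, at maa-1/C18D11.3, with a signal of 75.8 and 51.3 in replicate 1 and no peak in replicate 2, and R107.5/cls-2, just beyond 1000 bp, was outside with a signal of 175. Downstream, zipt-1/psf-2 was inside at 196 bp (85.5) and C15H11.11/nxf-1 outside at 262 bp (78.8). The tRNA limit removed 4 divergent summits, of which hecw-1/elmd-1 (31.0) was the farthest from a tRNA gene, at 191 bp, and the nearest kept was nep-26/mdt-22 (99.0) at 1079 bp. The right end of chromosome II removed 7, beginning with cup-14/ndub-8 (153), and the last kept on that chromosome was hpr-17/F32A11.1 (87.8).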

How the data were processed

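The deposited data are 8 peak lists from 2 biological replicates, a thresholded and a ranked list for each replicate and 2 of each for the series. Peaks are on build ce11, per the labels. Neither aligner nor peak caller is named, being not given in the sources used here. Scores, deposited by the authors, are scaled irreproducible discovery rates, at least 830 in thresholded lists and capped at 1000. Each peak's signal value was deposited by the authors without a unit and served here to rank and describe peaks. The series ranked lists hold 16 further columns that name no sample and were not used. The ranked lists also hold the global discovery rate as −log10, as deposited. The lists hold no read counts, so depth is unknown.

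The peaks studied, the 24 gene lists and the 23 motifs were chosen with earlier results of these data known. Genes came from Ensembl release 115 (WBcel235), whose chromosome names and lengths match ce11. A replicate called a peak when its thresholded list overlapped it by 1 bp or more, and replicate signals came from the strongest overlapping ranked peak. Shares have Clopper-Pearson and densities Poisson 95% intervals. A family of 4 two-sided Fisher's exact tests was adjusted by the Benjamini-Hochberg method, with a threshold of 0.05. A second family of 2 was added after the values were seen, and its comparisons are given as counts alone. Genes named are those at the 20 strongest peaks called in both replicates, up to 4 per list and those at the limits of the rule, and others were picked after their values were seen. Summit copy number is the median genome count of the 24-mers within 75 bp. The 8-mers, the run shared by histone pairs and the densities by distance were added after the values were seen. Alternatives covered peak lists, windows, 5′ ends, signal, repeats, overlap rules and each replicate alone. Steps were tested on simulated data. Software was scipy 1.17.1 and pandas 2.3.3 (statistics and tables), matplotlib 3.10.9 (figures) and numpy 2.4.6, under Python 3.11.15.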

Additional observations from a re-analysis of the deposited data

How the results depend on the processing

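No paired analysis was possible because there is 1 group of 2 replicates. With windows of 500 bp upstream to 100 bp downstream there were 119 peaks, the density ratio was 5.20, and the share called in both replicates was 37.8% and no longer passed (Fisher's exact test, adjusted p = 0.119). Among the stronger 50% by signal the density ratio was 4.69. There the shares called in both replicates (53.9%, adjusted p = 0.170), in the top 25% by signal (35.9%, adjusted p = 0.0766) and with GC above the median (56.3%, adjusted p = 0.0766) no longer passed Fisher's exact test. With GC taken within 100 bp the difference reversed, at 43.0% against 44.1% (Fisher's exact test, adjusted p = 0.859). With each replicate alone there were 79 to 129 peaks, a density ratio of 4.44 to 5.19, 34.2 to 38.0% in the top 25% by signal, 53.5 to 62.0% with GC above the median, 4.65 to 7.59% near snoRNA or snRNA genes and 2.84 to 4.90% of head-to-head pairs. The difference in the top 25% by signal lost its call without replicate 1 (adjusted p = 0.0917) and GC without replicate 2 (adjusted p = 0.0897), by Fisher's exact test. For each of these cases the cause was not tested. The remaining alternatives kept direction and call, and none passed for snoRNA or snRNA genes. Depth is unknown, so an uncalled peak is not an absent one, and intervals cover counting error only.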
